A study of Mus musculus with 33 samples.

Results

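Tbx3, 1 of the 21671 genes in the deposited table, was followed across 33 mouse livers and liver tumours in 7 groups. Its row was found by its symbol. Tbx3 encodes a T-box transcription factor that acts mainly as a repressor and that is needed for the growth of hepatoblasts, the bipotent progenitors of the fetal liver. In liver and liver cancer it is known as a target of the Wnt pathway. In that pathway a Wnt signal keeps β-catenin from being destroyed, and β-catenin then enters the nucleus and switches on target genes with TCF factors. In the adult liver this signal is strongest around the central vein, where pericentral hepatocytes make glutamine synthetase (Glul). Axin2, Lgr5, Notum and Rnf43 are targets that also feed back on the signal.

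All animals carried the strain label C57BL/6. In the first set, 20 livers were taken 4 days after injection of AAV8-TBG-CRE into mice aged 6 to 8 weeks. The virus carries Cre recombinase behind TBG, a promoter active in hepatocytes. These mice were wild type (WT), beta-cat Ex3 (Ex3), R26-lslMYC (MYC) or R26-lslMYC/beta-cat Ex3 (MYC+Ex3), with 5 livers each. Beta-cat Ex3 is an allele of β-catenin whose exon 3 is removed by Cre, which leaves a stable protein, and R26-lslMYC is a MYC transgene that Cre switches on. The wild-type livers of this set received the virus too. In the second set, 6 primary liver nodules came from mice with Albeta-CreERT2, a tamoxifen-dependent Cre driven by an albumin promoter, together with R26-lslMYC (3 MYC tumours) or R26-lslMYC/beta-catEx3 (3 MYC+Ex3 tumours). The controls of this set were 7 wild-type livers taken 4 days after 4-OHT, the active form of tamoxifen. The labels give no age for the tumour-bearing or 4-OHT mice, and tumour, age and Cre line cannot be told apart in comparisons of nodules with 4-OHT livers. The tissue is bulk RNA, so fewer cells that express Tbx3 and less Tbx3 RNA per cell cannot be told apart either.

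Values are RPKM, the reads of a gene scaled to its length in kilobases and to the size of its library in M reads. The library total lay between 3.75 and 7.32 M reads in the AAV8-TBG-CRE livers and between 23.9 and 38.8 M in the second set, where only 22.2% to 29.6% of it fell in genes, so RPKM are on different scales and were compared within a set. All 9 hepatocyte markers measured were above 0 in every group. Of the AAV8-TBG-CRE livers, 10 held RNA of the skin keratins Krt5, Krt14 and Krt17 at a summed RPKM of 3.95 to 23.8, against at most 0.398 in the other 10. These keratin-bearing livers were 3 of the WT, 3 of the Ex3, 1 of the MYC and 3 of the MYC+Ex3 livers. The labels give no sex. Read from Xist and Ddx3y, there were 2 males among the WT, 3 among the Ex3, 3 among the MYC and 4 among the MYC+Ex3 livers, and MYC liver 5 held both Xist (RPKM 86.1) and Ddx3y (4.74). Gene-level values cannot show the loss of exon 3, and Ctnnb1, the β-catenin gene, had a mean RPKM of 128 in WT and 120 in Ex3 livers. The labels do not say that the libraries of a group came from separate animals, so p-values measure only the spread between these samples.

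In the AAV8-TBG-CRE livers Tbx3 was highest with Ex3 and lowest with MYC. WT livers 1 to 5 had a Tbx3 RPKM of 10.9, 10.3, 8.66, 10.4 and 11.1, a mean of 10.3 ± 0.961 (SD, n = 5). Ex3 livers had 27.2, 25.2, 27.4, 23.4 and 13.04, a mean of 23.2 ± 5.94 (SD, n = 5). All 5 Ex3 livers lay above every WT liver, although Ex3 liver 5 stood well below the other 4. MYC livers had a Tbx3 RPKM of 4.12, 7.84, 5.197, 1.39 and 8.55, a mean of 5.42 ± 2.90 (SD, n = 5). MYC+Ex3 livers had 19.7, 18.4, 19.0, 6.10 and 18.1, a mean of 16.2 ± 5.71 (SD, n = 5). All 5 MYC livers were below every WT liver. Of the MYC+Ex3 livers, 4 were above every WT liver and 1 was below them all. How many of all genes separated the groups in this way was not counted. Against WT, limma's moderated test called 0.132% of 13688 genes for Ex3, 22.3% for MYC and 24.1% for MYC+Ex3. The depth behind the Tbx3 values was 32 to 774 reads per library, which are not counted molecules. The intervals in the plot of Tbx3 by library therefore cover counting error only.

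**Figure D1:**
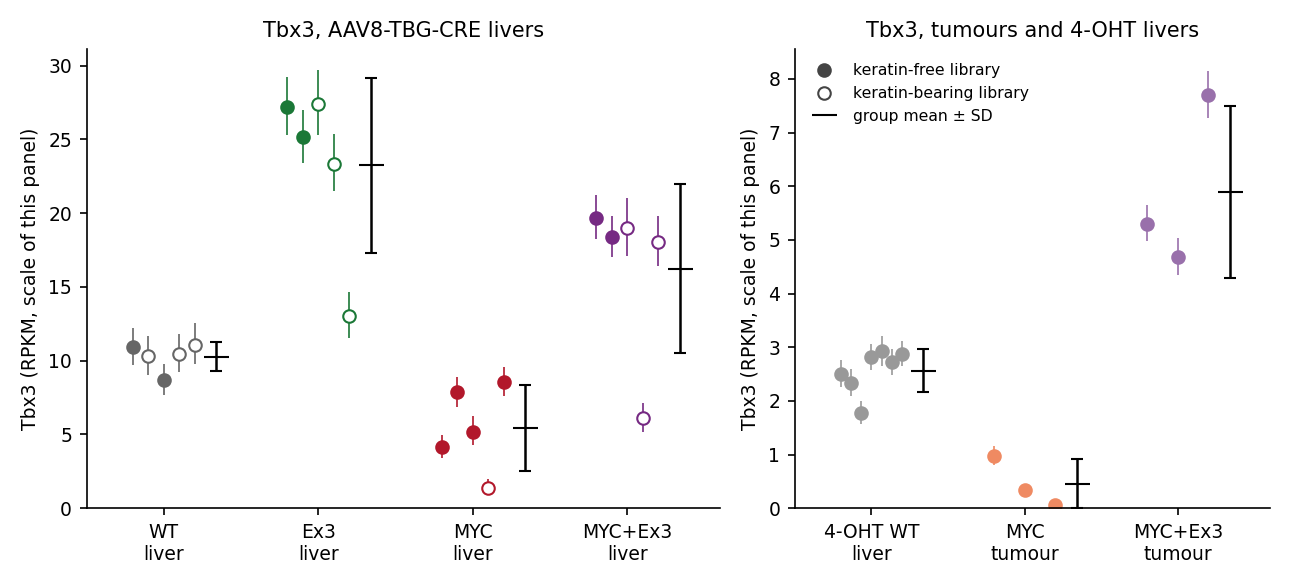
Tbx3 RPKM by library in the AAV8-TBG-CRE livers (left) and in the tumours and 4-OHT livers (right), each panel on its own scale. Points are libraries with exact 95% Poisson intervals of their reads, open where keratin-bearing, and black bars are the group mean ± SD. The 5 MYC livers all sit below the 5 WT livers, and Ex3 liver 5 and MYC+Ex3 liver 4 sit apart from their groups.

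Tbx3 was a gene of middling abundance, and its place among the genes detected in a library moved with genotype. Its median percentile was 58.5 in WT, 77.4 in Ex3, 45.1 in MYC and 68.8 in MYC+Ex3 livers. In the second set the medians were 55.9 in 4-OHT livers, 23.4 in MYC tumours and 67.3 in MYC+Ex3 tumours. This ranking is made within each library and so does not depend on the scale of the set.

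With Ex3 alone, the mean Tbx3 RPKM was 2.26 times that of WT. On the log2(RPKM + 1) scale, used for every change given here and which shrinks the change of weakly expressed genes, the difference was 1.06 ± 0.33 (SE; 95% interval 0.38 to 1.75). It did not pass the threshold of limma's moderated test with Benjamini-Hochberg adjustment over all genes tested (adjusted p = 0.496, unadjusted p = 0.00413), a comparison in which 0.132% of 13688 genes were called at an adjusted p under 0.05. The exact two-sided permutation test on Tbx3 alone gave p = 0.00794, the smallest value that 5 against 5 livers allow (0.0167 adjusted over 8 comparisons of Tbx3). The authors' deposited table gives a log2 fold change of 0.89 for Tbx3 here, with an adjusted p of 9.71e-07, and 0.765% of its genes are under 0.05. The size was close in both sources and the calls differed. The limma adjusted p depended on the setting and passed in none. It was 0.0586 with only the groups compared in the fit (1.06 ± 0.18 SE), 0.0816 with sample weights and 0.919 without Ex3 liver 4.

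With MYC alone, Tbx3 fell by 0.96 ± 0.33 on the log2 scale (SE), the mean of the WT livers being 1.90 times that of the MYC livers. The limma adjusted p was 0.0404, in a comparison in which 22.3% of genes were called, 734 of them lower. The exact two-sided permutation test gave p = 0.00794 (0.0167 adjusted over 8 comparisons). The authors' deposited table gives -0.90 with an adjusted p of 0.0164. The limma call was close to its threshold. It was lost without any 1 of WT livers 1, 2, 4 or 5 or MYC livers 1, 3 or 4, with adjusted p between 0.0525 and 0.130, with a term for sex (-0.90, adjusted p = 0.0538) and among the keratin-free livers alone (-0.58, adjusted p = 0.177). Leaving out MYC liver 4, the lowest and the keratin-bearing one of its group, brought the limma difference to -0.64 (adjusted p = 0.130).

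With MYC and Ex3 together, Tbx3 lay between the level of Ex3 and that of WT. Its difference from WT was 0.52 ± 0.33 (SE) on the log2 scale, with a limma adjusted p of 0.268, where 24.1% of genes were called. Against Ex3 alone it was -0.55 ± 0.33 (SE), with a limma adjusted p of 0.260, where 21.1% of genes were called. Neither passed the exact permutation test (p = 0.103 and p = 0.167). The authors' deposited table gives 0.54 for the comparison with WT, with an adjusted p of 0.0924. The low value of MYC+Ex3 liver 4 bore on both, and without it the limma difference was 0.82 from WT (adjusted p = 0.0551) and -0.25 from Ex3 (adjusted p = 0.603). The limma difference from WT was 0.90 among keratin-free livers alone (adjusted p = 0.0440) and 0.26 among keratin-bearing livers alone (adjusted p = 0.690).

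Against MYC alone, the MYC+Ex3 livers had 3.0 times the mean Tbx3 RPKM, and 4 of 5 were above every MYC liver. The log2 difference was 1.48 ± 0.33 (SE), with a limma adjusted p of 0.0856 and an unadjusted p of 0.000216, where 0.190% of genes were called. The exact two-sided permutation test gave p = 0.0238 (0.0381 adjusted over 8 comparisons). The authors' deposited table gives 0.69 with an adjusted p of 0.0480. The limma value passed the threshold without MYC+Ex3 liver 4 (1.78, adjusted p = 0.00768), without MYC liver 5, the library with both Xist and Ddx3y (1.66, adjusted p = 0.0485), and with a term for keratin-bearing libraries (1.68, adjusted p = 0.0235). Its adjusted p rose to 0.727 with only the groups compared in the fit, to 0.194 without MYC liver 4 (1.16) and to 0.288 without MYC+Ex3 liver 1 (1.39).

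The mean of Tbx3 was thus higher with Ex3 on the wild-type background (1.06) and on the MYC background (1.48), and neither limma value passed the threshold. The interaction, the difference between these 2 values, was 0.42 ± 0.47 (SE; 95% interval -0.55 to 1.39). Its limma adjusted p was 0.9999, and 0% of genes were called by limma for an interaction, with 132 of 13688 at an unadjusted p under 0.05. The interval holds values of either sign. From lowest to highest, the order of group means was MYC, WT, MYC+Ex3, Ex3. Of the neighbours in that order, only MYC and WT differed past the limma threshold. The unadjusted limma p of that difference was 0.00836. It was larger than those of Ex3 against WT (0.00413) and MYC+Ex3 against MYC (0.000216), which were not called. The adjustment depends on all genes tested, of which 22.3% were called for MYC against WT and 0.132% and 0.190% for the other 2.

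**Figure D2:**
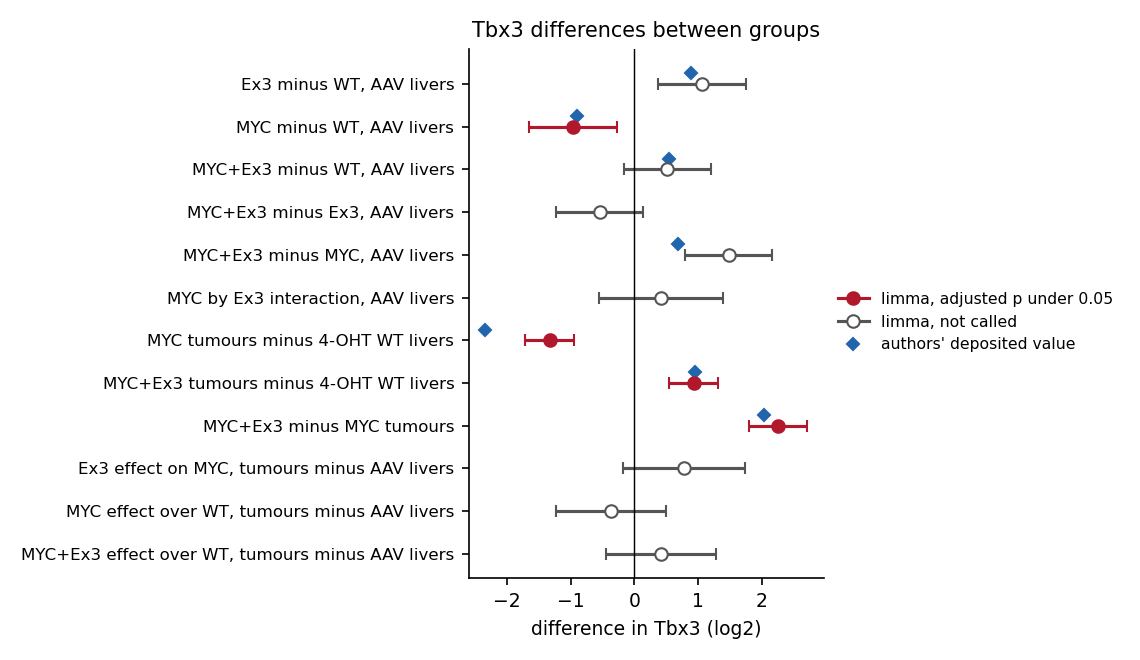
Differences in Tbx3 on the log2 scale in 12 comparisons, with 95% intervals from limma on log2(RPKM + 1), red where the adjusted p was under 0.05, and the log2 fold changes of the authors' deposited table as blue diamonds where it has the comparison. The 3 tumour comparisons and MYC against WT livers are red. The last 3 lines are differences between the effects in the 2 sets.

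In the second set the ratios of mean Tbx3 RPKM between groups were larger than in the matching comparisons of livers. The differences of effects between the sets, given below, did not pass the threshold. The 7 4-OHT livers had a Tbx3 RPKM of 1.78 to 2.92 with a median of 2.72, a mean of 2.56 ± 0.405 (SD, n = 7). The 3 MYC tumours had 0.964, 0.339 and 0.064, and the 3 MYC+Ex3 tumours 5.30, 4.68 and 7.70. The 3 groups did not overlap. All 3 MYC tumours were below every 4-OHT liver and all 3 MYC+Ex3 tumours above. How many of all genes separated these groups as fully was not counted. Against 4-OHT livers limma called 49.8% of 11854 genes for MYC tumours and 60.6% for MYC+Ex3 tumours. The lowest tumour, MYC tumour 3, rested on 12 reads of Tbx3 (exact 95% interval of its RPKM 0.0330 to 0.112), and the highest, MYC+Ex3 tumour 3, on 1208.

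MYC tumours had a mean Tbx3 RPKM of 0.456 ± 0.461 (SD, n = 3), and the 4-OHT livers had 5.62 times as much. The log2 difference was -1.33 ± 0.18 (SE), with a limma adjusted p of 5.54e-05, where 49.8% of 11854 genes were called. The exact two-sided permutation test gave p = 0.00833, the smallest possible with 3 against 7. The authors' deposited table gives -2.34 with an adjusted p of 2.47e-06. The size depended on the constant added to RPKM, and with 0.1 in place of 1 the limma difference was -2.63. The titles of the 4-OHT livers carry the tag S14 or S15. Against the livers with either tag alone the limma difference of Tbx3 was -1.24 and -1.45, and both passed the threshold.

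MYC+Ex3 tumours had a mean Tbx3 RPKM of 5.89 ± 1.59 (SD, n = 3), 2.30 times the mean of the 4-OHT livers. The log2 difference was 0.94 ± 0.18 (SE), with a limma adjusted p of 0.000468, where 60.6% of genes were called. The exact two-sided permutation test again gave p = 0.00833, and the authors' deposited table gives 0.95 with an adjusted p of 1.47e-06. Against the S14 and the S15 livers alone it was 1.02 and 0.82, both past the limma threshold. Most genes were called in this comparison, so a call by itself sets Tbx3 apart from few of them. The median gene was 0.23 higher in MYC+Ex3 tumours and 0.19 higher in MYC tumours than in 4-OHT livers. After rescaling by the median ratio the limma differences of Tbx3 were 0.75 and -1.42.

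Between the tumour types Tbx3 was 2.27 ± 0.21 (SE) higher on the log2 scale in MYC+Ex3 than in MYC tumours, with a ratio of mean RPKM of 12.9. The limma adjusted p was 1.95e-05, where 4.13% of genes were called, 240 of them higher. The authors' deposited table gives 2.04 with an adjusted p of 0.000250. With 3 against 3 tumours the exact permutation test cannot go below p = 0.1, which is what Tbx3 gave. The 3 MYC tumours read as male, as did 2 of the 3 MYC+Ex3 tumours, and the female MYC+Ex3 tumour had the highest Tbx3 RPKM (7.70). A term for sex left the limma difference at 2.20 (adjusted p = 7.02e-05). It was 3.79 with 0.1 added to RPKM and 3.24 with reads in genes as the library total.

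The effects in tumours and in day 4 livers were set against each other as differences of within-set differences. The Ex3 effect on the MYC background was 0.78 ± 0.47 (SE) larger in tumours on the log2 scale, with a limma adjusted p of 0.933, where 0.555% of 13873 genes were called. The MYC effect over wild type on Tbx3 differed by -0.37 ± 0.42 (SE) (limma adjusted p = 0.766, 2.43% of genes called). The MYC+Ex3 effect over wild type was 0.42 ± 0.42 (SE) higher for Tbx3 (limma adjusted p = 0.597, 11.0% called). None of the 3 passed the threshold, and each 95% interval included 0. The sizes of the first and of the MYC effect depended on the added constant and on the scale. The first was 2.10 with 0.1 added to RPKM (limma adjusted p = 0.147), 1.76 with reads in genes as the library total (adjusted p = 0.0932) and 1.44 with median ratio scaling (adjusted p = 0.130). The difference in the MYC effect on Tbx3 was -1.49 (limma adjusted p = 0.145), -1.33 (adjusted p = 0.0912) and -0.98 (adjusted p = 0.166) under the same settings.

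The Wnt feedback genes gave the nearest listed comparison for Tbx3. Of 10 genes on that list, 8 reached the minimum RPKM in each set. With Ex3, 4 of the 8 rose (Axin2, Lgr5, Znrf3 and Sp5), with a list median of 1.19 on the log2 scale against 0.01 for all genes, where 0.132% of all genes were called. With MYC and Ex3 against WT 6 rose, where 2455 of 13688 genes did. With MYC alone 1 fell, Notum, which encodes a secreted enzyme that inactivates Wnt proteins (-1.08 ± 0.36 SE, limma adjusted p = 0.0335), where 734 of 13688 genes fell. In MYC tumours against 4-OHT livers 6 fell and 1 rose, the ubiquitin ligase gene Znrf3, where 1621 of 11854 genes fell and 4286 rose. In MYC+Ex3 tumours against MYC tumours all 8 rose, with a list median of 2.20 against 0.03 for all genes, where 240 of 11854 genes rose. The count with Ex3 was 0 in keratin-free or keratin-bearing livers alone, 2 without WT liver 1 or 4 or Ex3 liver 2 or 4, and 1 without Ex3 liver 3. Notum lost its call with MYC without WT liver 1, 2, 3 or 5 or MYC liver 1 or 4, and Znrf3 its rise in MYC tumours without MYC tumour 2 or 3 and under both other scalings. The list was drawn up with results of these data known, and its counts describe the setting of Tbx3 rather than test it.

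The pericentral list, 11 genes of hepatocytes around the central vein, fell with MYC in both sets. With MYC alone 9 of the 11 fell in day 4 livers (list median -0.68), and in MYC tumours all 11 fell (list median -1.73, all genes 0.19). Of all genes, 734 of 13688 and 1621 of 11854 fell in these comparisons. The first count was 3 in keratin-free livers alone. Ex3 alone raised 1 of them past the threshold, where 0.132% of all genes were called. It was Rhbg, an ammonium transporter, which went from a mean RPKM of 12.7 to 43.9 (limma adjusted p = 0.0241). That call was lost without WT liver 2, 4 or 5 or Ex3 liver 3 or 4. Glul stood at a mean RPKM of 193 in WT and 127 in MYC livers. MYC+Ex3 tumours had 7 of the 11 above MYC tumours and none below, where 240 of 11854 genes rose and 249 fell. Of 12 periportal genes, which mark the opposite end of the lobule, 1 fell with MYC alone, a share near that of all genes (734 of 13688). In MYC+Ex3 against MYC tumours 4 of the 12 fell, where 249 of 11854 genes did. The serine dehydratase gene Sds had a mean RPKM of 28.1 in MYC tumours and 2.63 in MYC+Ex3 tumours.

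**Figure D3:**
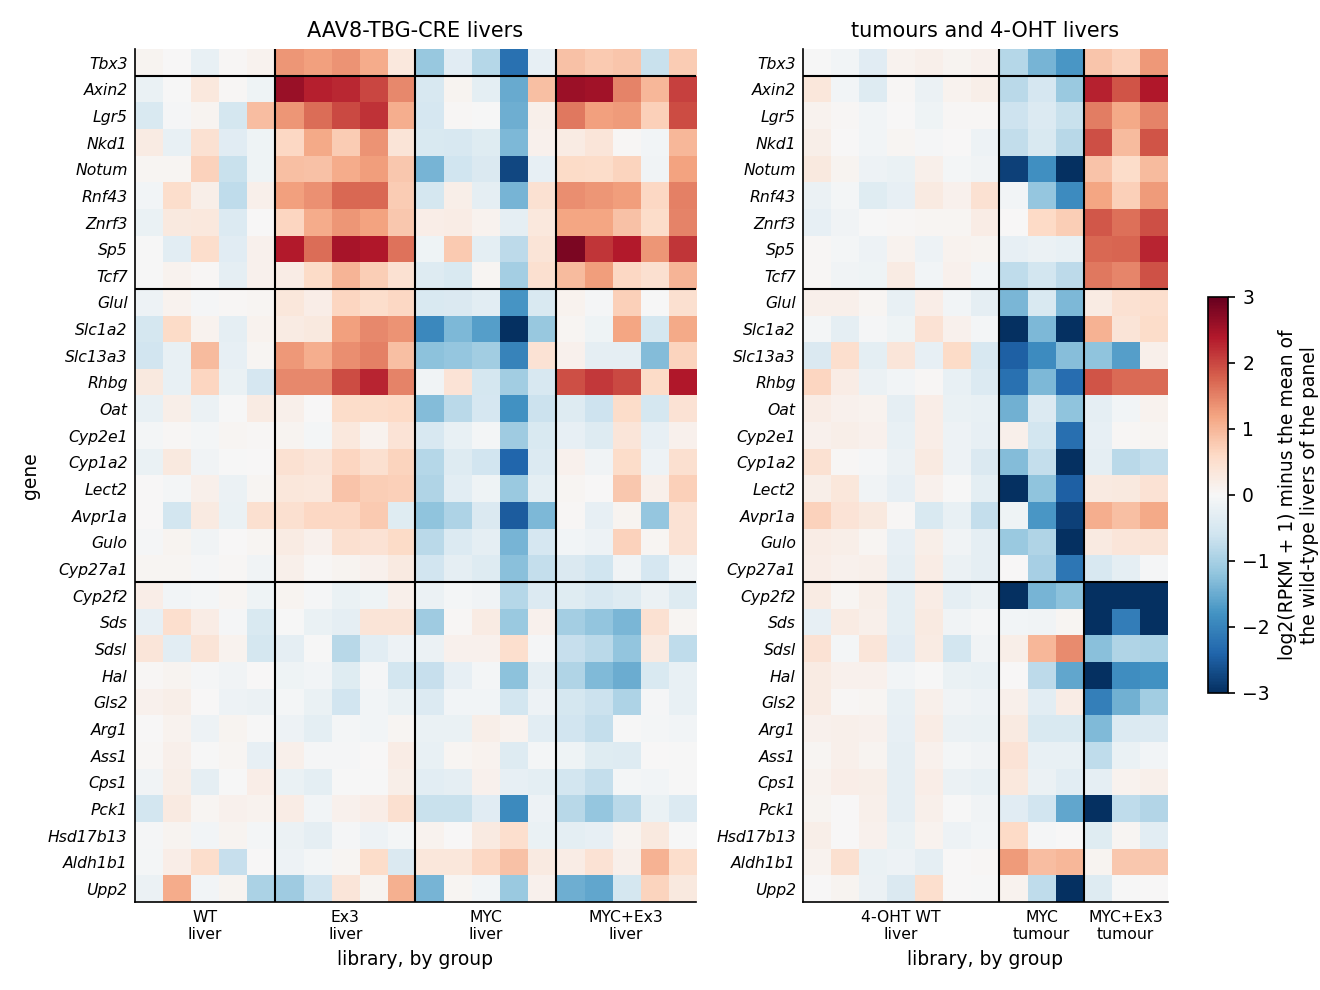
Tbx3, 8 Wnt feedback genes, 11 pericentral genes and 12 periportal genes (rows, from top to bottom) in every library, as log2(RPKM + 1) minus the mean of the wild-type livers of that set, with colours ending at 3 in either direction. Columns follow the replicate numbers within each group. Tbx3 is above the wild-type mean in every Ex3 and MYC+Ex3 library except MYC+Ex3 liver 4, and below it in every library of the MYC livers and MYC tumours.

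The size of the Tbx3 response was set against those of Axin2, Lgr5 and Glul. With Ex3 alone Axin2, a scaffold of the complex that destroys β-catenin, went from a mean RPKM of 3.32 to 18.4, and the difference was 2.13 on the log2 scale, 1.07 larger than that of Tbx3. With MYC alone Axin2 had a difference of -0.26 (limma adjusted p = 0.649), and Tbx3 fell by 0.70 more than Axin2. Exact two-sided permutation tests of Tbx3 minus Axin2 gave p = 0.00794 and p = 0.0159. The Tbx3 difference under Ex3 was 0.60 larger than that of Glul and 0.58 smaller than that of Lgr5, with exact permutation p of 0.0556 and 0.119. Over the 24 such tests, of 3 targets in 8 comparisons chosen after the data were seen, the smallest adjusted p was 0.0667, so none passed 0.05. The values against Glul are to be read with its abundance in mind. Glul had up to 1.63 reads per base of gene in a library and Tbx3 at most 0.238. The 50 most abundant genes reached a median of 1.09 to 1.46 reads per base in every library, a range that Glul reached and Tbx3 did not. Whether counts are compressed in that range was not tested. Other pericentral genes were about as abundant as Glul. In WT livers the RPKM of Cyp2e1 was 232 to 254 and that of Cyp27a1 183 to 204, against 173 to 207 for Glul. The same caution therefore holds for the counts of the pericentral list.

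**Figure D4:**
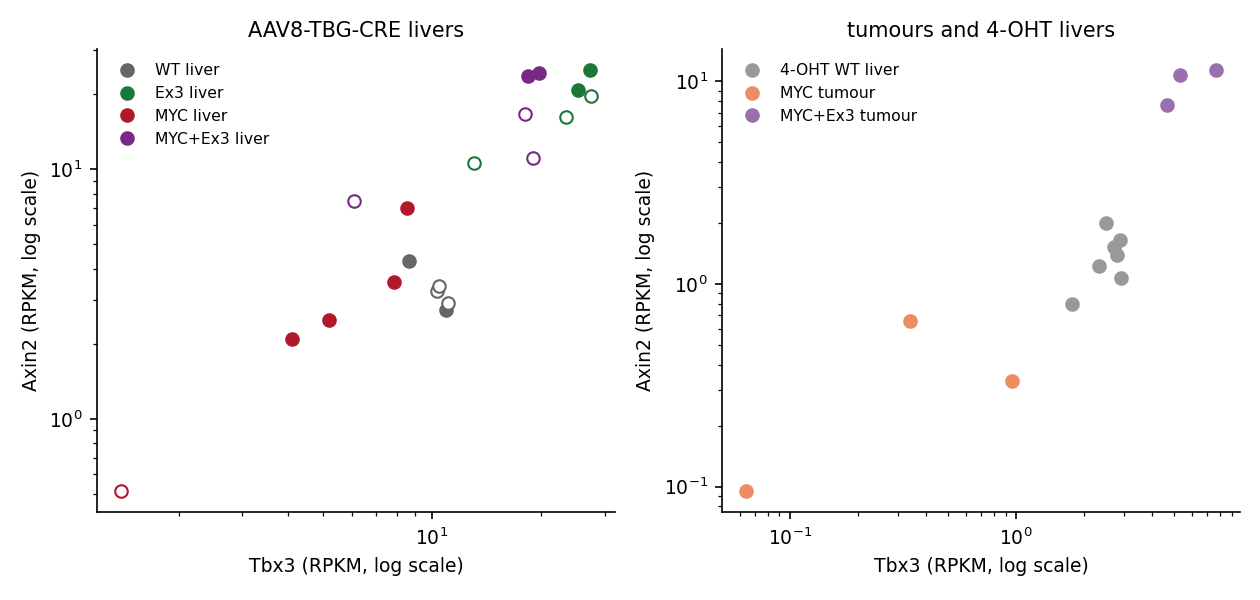
Tbx3 RPKM against Axin2 RPKM by library, both on log axes, in the AAV8-TBG-CRE livers (left, open points keratin-bearing) and in the tumours and 4-OHT livers (right). WT and MYC livers overlap in Axin2 and not in Tbx3, and MYC liver 4 and MYC tumour 3 are lowest in both genes.

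In the libraries with low Tbx3 several other Wnt feedback genes were low as well, while some of the pericentral genes were not low in all of them. In MYC liver 4 Tbx3 (RPKM 1.39) and each of 12 Wnt feedback and pericentral genes compared with it was the lowest of its group, Glul at 55.9 against 139 to 155 in the other 4. In Ex3 liver 5 Tbx3 was 13.04 against 23.4 to 27.4 in the others, and Axin2 (10.6), Lgr5 (7.63), Notum (64.5) and Rnf43 (21.0) were also lowest. Nkd1 and Sp5 were lowest there too. By RPKM Glul was not low in Ex3 liver 5, at 296 against 220 to 303, nor was Slc1a2, at 145 against 67.6 to 156. Rhbg, Lect2 and Znrf3 were not the lowest either, and Oat was the highest of the group, at 262 against 173 to 253. Of the pericentral genes outside these 12, Avpr1a (36.3 against 66.6 to 82.3) and Slc13a3 (13.6 against 15.6 to 21.2) were the lowest there. Cyp2e1, Cyp1a2, Gulo and Cyp27a1 were the highest. Ex3 liver 5 had the smallest library total of its group (4.23 M reads), and the hepatocyte marker Alb was highest there too, at 313 against 221 to 294. In MYC+Ex3 liver 4 Tbx3 was 6.10 against 18.1 to 19.7, and 9 of the 12 other genes were lowest there too. These included Axin2 (7.49), Notum (33.9), Rnf43 (18.9), Slc1a2 (38.9 against at least 51.8) and Rhbg (18.7 against at least 49.0). By RPKM Glul was not the lowest, at 192 against 189 to 315, while Avpr1a, Slc13a3 and Cyp1a2, outside the 12, were. The caution on abundance given above covers the ranks of Glul here and in Ex3 liver 5, and compression was not tested. All 3 livers with low Tbx3 described here were keratin-bearing. Keratin-bearing livers with Tbx3 near the top of their group also occurred (Ex3 liver 3 at 27.4 and MYC+Ex3 liver 3 at 19.0). The part of the keratin-bearing tissue in these low values was not tested.

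Among the 10262 genes that averaged an RPKM of 1 or more in both sets, those most like Tbx3 in pattern were chosen by Pearson's r of log2(RPKM + 1), given as a description without a test, since libraries of a group share their genotype. Over the 20 AAV8-TBG-CRE livers the 5 highest were Nxpe2 (0.94), Slc25a21 (0.94), Ccdc157 (0.93), Lhpp (0.91) and Phldb2 (0.91). Over the 13 libraries of the second set they were Rnf43 (0.95), Ikbkb (0.95), Lhpp (0.93), Notum (0.91) and Rhbg (0.91). Ranked by the smaller of both values, the first 10 were Lhpp, Notum, Rnf43, Axin2, Lgr5, Avpr1a, Slc25a21, Nkd1, Slc1a2 and Fyco1. Of these, 5 are on the Wnt feedback list and 2, Avpr1a and Slc1a2, on the pericentral list. In all 18 genes had r over 0.8 in both sets, while the median gene had -0.07 and -0.01. At the other end were Rcn1 (-0.80 and -0.81), Prps1 (-0.75 and -0.82), Il10rb (-0.72 and -0.83), Clec7a (-0.69 and -0.92) and Zyg11a (-0.69 and -0.68).

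Lhpp, a gene for a histidine phosphatase, was first in both sets together and had the same order of group means as Tbx3 in each set. Its mean RPKM was 54.0 in WT, 123 in Ex3, 28.8 in MYC and 83.4 in MYC+Ex3 livers. It was 12.03 in 4-OHT livers, 4.73 in MYC tumours and 25.03 in MYC+Ex3 tumours. Its r with Tbx3 stayed between 0.87 and 0.94 in the livers when any 1 library was left out, and was 0.94 in keratin-free and 0.95 in keratin-bearing livers alone. After group means were removed, r of Lhpp with Tbx3 was 0.69 in the livers and 0.71 in the second set, and that of Rnf43, a ubiquitin ligase that removes Wnt receptors, 0.80 and 0.87. Among the others of the first 10 this r ran from 0.60 (Nkd1) to 0.86 (Axin2) in the livers. In the second set it was 0.75 for Fyco1, 0.51 for Axin2, 0.47 for Avpr1a and 0.33 for Nkd1. It was lower there for Lgr5 (0.27), Notum (0.19), Slc1a2 (0.06) and Slc25a21 (-0.10). With group means kept, Phldb2, high in the livers, had r = 0.23 in the second set, and -0.26 there without MYC tumour 3.

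**Figure D5:**
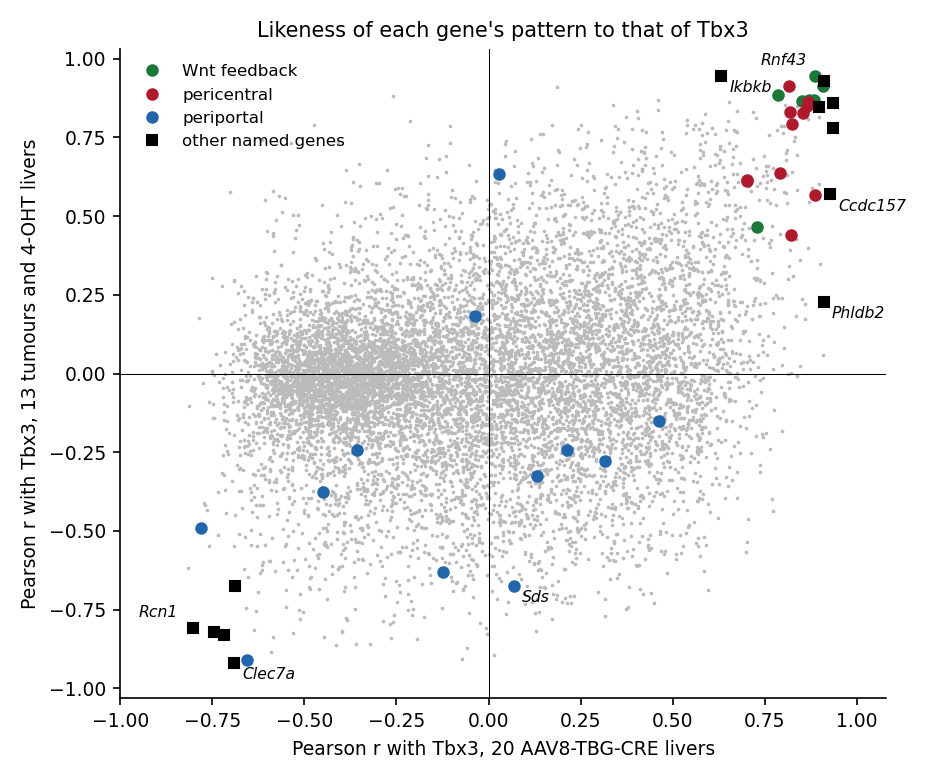
Pearson's r with Tbx3 of each of 10262 genes, over the 20 AAV8-TBG-CRE livers (x axis) and over the 13 tumours and 4-OHT livers (y axis). Coloured points are listed genes and black squares the other genes named for likeness. Wnt feedback and pericentral genes lie at the upper right, where both r are high, and 10 of the 12 periportal genes lie below 0 on the y axis.

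Within the T-box family the share of Tbx3 followed its level. Tbx3 made up 27.5% ± 3.02 (SD, n = 5) of the summed RPKM of Tbx3 and 16 other T-box genes in WT livers. The share was 45.8% ± 7.47 in Ex3, 13.7% ± 6.53 in MYC and 32.3% ± 9.58 in MYC+Ex3 livers (SD, n = 5 each). It made up 6.29% ± 7.01 in MYC and 43.9% ± 6.68 in MYC+Ex3 tumours (SD, n = 3 each). Of the 16 others, 4 reached the minimum for testing in the livers (Tbx2, Tbx6, Tbx20 and Mga) and 2 in the second set (Tbx2 and Mga). Mga, a large T-box protein that binds MAX, was the most abundant, at a mean RPKM of 19.3 in WT, 17.9 in Ex3 and 25.9 in MYC livers, and rose with MYC (limma adjusted p = 0.0118), though not past the threshold after median ratio scaling or in keratin-free livers alone. With Ex3 limma called 0 of the 4, with 0 at an unadjusted p under 0.05, where 0.132% of all genes were called. Tbx2, the closest relative of Tbx3, had a mean RPKM of 2.69, 3.07, 2.68 and 2.51 in WT, Ex3, MYC and MYC+Ex3 livers. Tbx2 was lower in both tumour types than in 4-OHT livers, at 0.333 and 0.365 against 1.02 (limma adjusted p = 0.00362 and 0.00436), so it fell in the MYC+Ex3 tumours in which Tbx3 rose.

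The genes that flank Tbx3 in the order of the GRCm38.p6 annotation of RefSeq, used only for that order, had other patterns. Med13l, a subunit of the Mediator kinase module, had a mean RPKM of 3.62 in WT, 3.75 in Ex3 and 3.73 in MYC livers, and limma called it in none of the 12 comparisons. Tbx5, the neighbouring T-box gene, had a mean RPKM of at most 0.311 in any group. Rbm19, an RNA-binding protein of ribosome assembly, rose with MYC from 4.72 to 10.2 (limma adjusted p = 0.0224) and stood at 4.75 with Ex3. That call was lost without WT liver 4 or 5 or MYC liver 1.

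Of 6 genes that TBX3 is known to repress in other systems, 5 were tested in the livers. With Ex3 limma called 0 of the 5, and 0 were at an unadjusted p under 0.05. With 0.132% of all genes called there, that count says nothing particular about the list. The phospholipase gene Pld1 was lower with MYC, where Tbx3 was also lower (mean RPKM 7.83 in WT and 4.87 in MYC livers, limma adjusted p = 0.0119). The cell cycle inhibitor gene Cdkn1a was higher in MYC+Ex3 than in WT livers (44.0 against 19.2, limma adjusted p = 0.0399) and higher in both tumour types, in which Tbx3 went opposite ways. Its call in the livers was lost without WT liver 2 or 3 or any 1 of MYC+Ex3 livers 1 to 4, and that in MYC tumours without MYC tumour 1. Cdkn2a, the best known of them, had a mean RPKM of at most 0.250 in any group and was too low to test. Cdh1, the gene of E-cadherin, had an RPKM of 0.0761 in MYC tumour 1 against 13.2 and 11.8 in the other 2 MYC tumours. Tbx3 was highest of the group in MYC tumour 1, at 0.964 against 0.339 and 0.064. A link between the 2 genes was not tested.

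A list of 7 genes held Ctnnb1 itself and nuclear cofactors of β-catenin, and 6 were tested. Limma called 0 of them with Ex3 or with MYC, with 0 at an unadjusted p under 0.05 in each, where 0.132% and 22.3% of all genes were called. In the second set Tcf7l2, a TCF factor through which β-catenin acts, was lower in MYC tumours (0.930) and MYC+Ex3 tumours (0.710) than in 4-OHT livers (1.57), with limma adjusted p of 0.0328 and 0.00438. It was the 1 of 5 genes of this list tested there that fell, and 1 other, Pygo2, rose in both tumour types. Of all 11854 genes 1621 fell and 4286 rose in MYC tumours, and 2178 fell and 5011 rose in MYC+Ex3 tumours. These counts say nothing particular about the list. Of 5 hepatoblast and hepatocyte fate factors, Hnf4a and Cebpa fell in MYC+Ex3 against WT livers, at -0.29 and -0.35 on the log2 scale (limma adjusted p = 0.0353 and 0.0252). Of all 13688 genes, 846 fell in that comparison.

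Markers of other liver cells also moved with the groups in which Tbx3 moved. In the second set 9 of 10 endothelial and 8 of 9 macrophage markers were lower in MYC tumours than in 4-OHT livers, and 8 and 7 were lower in MYC+Ex3 tumours, where 1621 and 2178 of 11854 genes fell. Of 11 stellate and fibroblast markers 5 fell and 3 rose in MYC tumours, and 8 fell and 2 rose in MYC+Ex3 tumours. Their fall thus accompanied both the lower and the higher Tbx3. Between the tumour types 0 of 10 endothelial and 0 of 9 macrophage markers were called by limma, where 4.13% of all genes were. Even so, 9 endothelial markers were lower and 1 higher in MYC+Ex3 tumours (list median -0.21, all genes 0.03). Of these 10, 4 were at an unadjusted limma p under 0.05. Of the macrophage markers 5 were lower and 4 higher, with 1 at an unadjusted limma p under 0.05. The summed RPKM of the endothelial list ran from 52.7 to 88.9 in 4-OHT livers, 21.2 to 46.8 in MYC tumours and 28.7 to 32.0 in MYC+Ex3 tumours. In the AAV8-TBG-CRE livers 2 of 10 endothelial markers fell with MYC (Kdr and Fcgr2b). With MYC+Ex3 2 fell (Wnt2 and Rspo3, which encode a Wnt ligand and a Wnt enhancer). With MYC the stellate and fibroblast markers Col1a1 and Acta2 and the macrophage marker Cd68 rose, and Reln, Rgs5, the hepatocyte marker Tat and the keratinocyte marker Sfn fell. With MYC+Ex3 Col1a1 rose and Lrat, Rgs5, Dcn and Hnf4a fell. Of all 13688 genes tested, 2313 rose and 734 fell with MYC, and 2455 rose and 846 fell with MYC+Ex3. With Ex3 alone (0.132% of all genes called) limma called 0 members of the 7 marker lists, with 2 stellate or fibroblast markers and 1 cholangiocyte marker at an unadjusted p under 0.05. Between the tumour types the collagen gene Col3a1 and the cholangiocyte marker Spp1 were lower in MYC+Ex3 tumours, and no other marker was called. The part of these cells in the differences of Tbx3 was not tested.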

How the data were processed

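Strand-specific total RNA libraries were made with a TruSeq kit, per the labels' protocols. The submitters' processing notes name TopHat2 2.0.8, SAMtools, featureCounts 1.4.5-p1, DESeq2 and the build mm9. Strand setting and duplicate removal are not given in the sources used here. The authors deposited RPKM per gene and library, and, for 7 comparisons, log2 fold changes and adjusted p-values, which were copied as they stand. Within a gene the deposited RPKM were whole multiples of 1 read (100% of 20485 genes above 0, within 0.001 reads), which gave Tbx3 a length of 5082 bases and the reads and library totals used here. No count test was run. limma 3.58.1 (R 4.3.3) was fitted to log2(RPKM + 1), with genes at an RPKM of at least 1 in at least 3 libraries of the fit, separately for 20 livers, for 13 libraries of the second set, and for all 33 for differences between effects. Adjusted p-values under 0.05 were called. On simulated data for MYC against WT livers (13612 genes) 80.0% of 2-fold and 100% of 4-fold changes were called, and for MYC+Ex3 against MYC tumours (11558 genes) 54.5% and 100%. The simulation gave every gene the same dispersion, 0.05. The SD of Tbx3 RPKM was 9.35% of its mean in WT and 53.6% in MYC livers, and 101% in MYC and 27.1% in MYC+Ex3 tumours. These rates therefore do not tell how often a change of Tbx3 itself would be called. Named genes are Tbx3, members of 7 pathway and 7 marker lists and, by likeness, the 5 highest in each set, the 10 highest and the 5 lowest in both, leaving out predicted genes and pseudogenes, and the flanking genes. The gene and lists were chosen with earlier results of these data known. The antisense transcripts of Tbx3 were not analysed here, and reads of the opposite strand may count towards it. Replicate numbers follow record order. 0 columns lay outside the series.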

Additional observations from a re-analysis of the deposited data

Results flagged for a closer look

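Of 5 groups with enough libraries to be checked for a library far from the rest (Dixon's test at the 95% level, which by chance flags about 1 group in 20), 2 held such a library for Tbx3, both at the low end. Ex3 liver 5 had a Tbx3 RPKM of 13.04 where the other 4 lay between 23.4 and 27.4. Its gap to the nearest was 0.717 of the range of the group, above the critical value of 0.710. MYC+Ex3 liver 4 had a Tbx3 RPKM of 6.10 where the other 4 lay between 18.1 and 19.7, with a gap of 0.879 of the range. Neither library was left out of the tests.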

How the results depend on the processing

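None of the 12 Tbx3 differences changed sign under any alternative tried. For MYC against WT livers Tbx3 lost its limma call with no filter on low values (-0.96, adjusted p = 0.0644), with only the groups compared in the fit (-0.96, 0.0590), with a term for sex (-0.90, 0.0538) and in keratin-free livers alone (-0.58, 0.177). Without any 1 library it lay between -1.14 and -0.64. For MYC+Ex3 against WT livers the call was gained with sample weights (0.70, 0.0283) and in keratin-free livers (0.90, 0.0440), and not in keratin-bearing livers (0.26, 0.690). For MYC+Ex3 against MYC livers it was gained with a term for sex (1.54, 0.0497), sample weights (1.61, 0.0021), a term for keratin-bearing libraries (1.68, 0.0235) and the exact permutation test (1.48), and lay between 1.16 and 1.78 without any 1 library. Its adjusted p ran from 0.0021 to 0.727 over all settings. The exact permutation test also passed for Ex3 against WT livers (1.06) and could not pass between tumours (2.27, p = 0.1). The settings for group means, likeness, changes against a target and genes other than Tbx3 were chosen after seeing the data. Of 1551 recomputed calls of named genes 171 were lost and 0 changed sign, and of 5222 recomputed list counts 372 moved by over 1.5 times. The cause of these shifts was not tested. With 0.1 added to RPKM, the change of Tbx3 minus Lgr5 between tumour types was -0.27 (0.32 as reported). The r of Phldb2 in the second set lay between -0.26 and 0.40 without any 1 library. A filter at an RPKM of 5 left Tbx3 out of the tests within the second set. Of counts of genes called, those for Ex3 against WT livers ran from 2 to 62 (18 reported), for MYC+Ex3 against MYC livers from 6 to 78 (26), for MYC against WT livers from 1249 to 3727 (3047), for MYC+Ex3 against WT livers from 2395 to 6416 (3301), for MYC+Ex3 against Ex3 livers from 1668 to 6707 (2893), and for MYC+Ex3 against MYC tumours from 70 to 764 (489). The differences between sets had 15 to 213 (77), 164 to 938 (337) and 846 to 3973 (1531). No paired analysis was possible because replicate numbers follow record order and pair no animals. MYC tumour 3, with 12 reads of Tbx3, limits the size of the tumour difference.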
